A study of Ascaridia galli and Trichostrongylus colubriformis with 4 samples.

Results

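The collagens and cuticlins of 2 parasitic nematodes were compared between 2 conditions, called A and B in the deposited tables. Members were every unigene, a sequence that the authors' tables treat as 1 transcript, whose best protein match carries "collagen" or "cuticlin" in its name, with collagenases left out. They numbered 120 of 150798 unigenes in *Ascaridia galli*, a roundworm of chickens, and 88 of 43810 in *Trichostrongylus colubriformis*, a small roundworm of the sheep intestine. In all, 208 of 194608 unigenes were members, which is 0.217% of the annotated unigenes of *A. galli* and 0.389% of those of *T. colubriformis*. Names come from the best match in other nematodes and not from a worm's own gene models: 73 of the 120 *A. galli* members matched *Toxocara canis* and 32 matched *Ascaris suum*, and 67 of the 88 *T. colubriformis* members matched *Oesophagostomum dentatum*.

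The study exposed whole worms in vitro to an extract of the moss *Pottia lanceolata* in water or, as controls, to distilled water, in order to look for expression changes behind a worm-killing activity. Per the labels' protocols, worms were taken from intestines of freshly slaughtered chickens and sheep. There was 1 library per worm and condition, 4 in all. The number, sex and age of the worms in a library, whether they were pooled, and the extract concentration behind the RNA were not stated in the labels. No label ties A or B to the extract or to water, and the order may differ between the worms, so every difference below is given as B against A and none as an effect of the extract. With 1 library per condition there is no replicate error, no test and no p-value of a condition, and intervals cover counting error only.

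Collagens are proteins whose chains wind into a triple helix. In nematodes a large family of short cuticle collagens builds the body's outer coat, secreted by the skin layer beneath it and remade at each moult, whereas type IV collagen forms the sheet-like network of basement membranes around muscle, gut and gonad. Cuticlins are the part of the cuticle that stays insoluble when its cross-links are reduced; they carry a zona pellucida domain and in *Caenorhabditis elegans* shape cuticle structures such as the lateral ridges. In ascarid roundworms the body and its cuticle go on growing after the last moult.

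Levels are normalized counts as deposited, not corrected for unigene length, so levels are compared between conditions and not between genes. The deposited scaling set equal reads unequal: the recovered totals were 87659967 reads in A and 69118994 in B of *A. galli*, and 91182265 and 91812201 in *T. colubriformis*, where 1 read was worth 2 normalized counts in A and 0.5 in B. Dividing by total reads in place of the deposited scaling raises log2 ratios by 0.38 in *A. galli* and by 1.99 in *T. colubriformis*. The rise is smaller where counts are low, because 1 is added to each count before the ratio is taken. Ratios "by total reads" below use that second scaling, and RPM values do so by construction. On the deposited scaling the log2 ratio of B over A had a median of -0.25 over 51840 annotated *A. galli* unigenes and of 0.44 over 19978 in *T. colubriformis*. Medians here and below leave out unigenes whose mean over both conditions was under 10, except where they are given by mean level. By total reads those medians were 0.13 and 2.34.

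In *A. galli* the cuticle collagens took the most reads and, as a sum, were higher in B on both scales, as was type IV collagen, while the sum of cuticlins was lower in B on both. Summed over 41 unigenes, cuticle collagens took 4096 reads per 1000000 reads (RPM) in A and 6945 in B, a ratio of 1.70. The 2 type IV unigenes went from 75.4 to 150 RPM, 23 other collagens from 182 to 194, 38 cuticlins from 83.4 to 58.3, and 16 products that modify or bind collagen from 61.9 to 55.5. The small difference of the other collagens turned with the scaling: their sum was 16153 normalized counts in A and 13195 in B, a log2 ratio of -0.29 as deposited and 0.091 by total reads. In *T. colubriformis* 60 cuticle collagens took 711 RPM in A and 963 in B, 6 type IV unigenes 1.75 and 55.3, and 22 unigenes named only for the collagen triple helix repeat 540 and 308. The direction of the cuticle collagen sum turned with the scaling there too, from 129610 normalized counts in A and 44188 in B, a log2 ratio of -1.55, to 0.44 by total reads. No unigene of that worm was named a cuticlin or a collagen-modifying product.

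**Figure D1:**
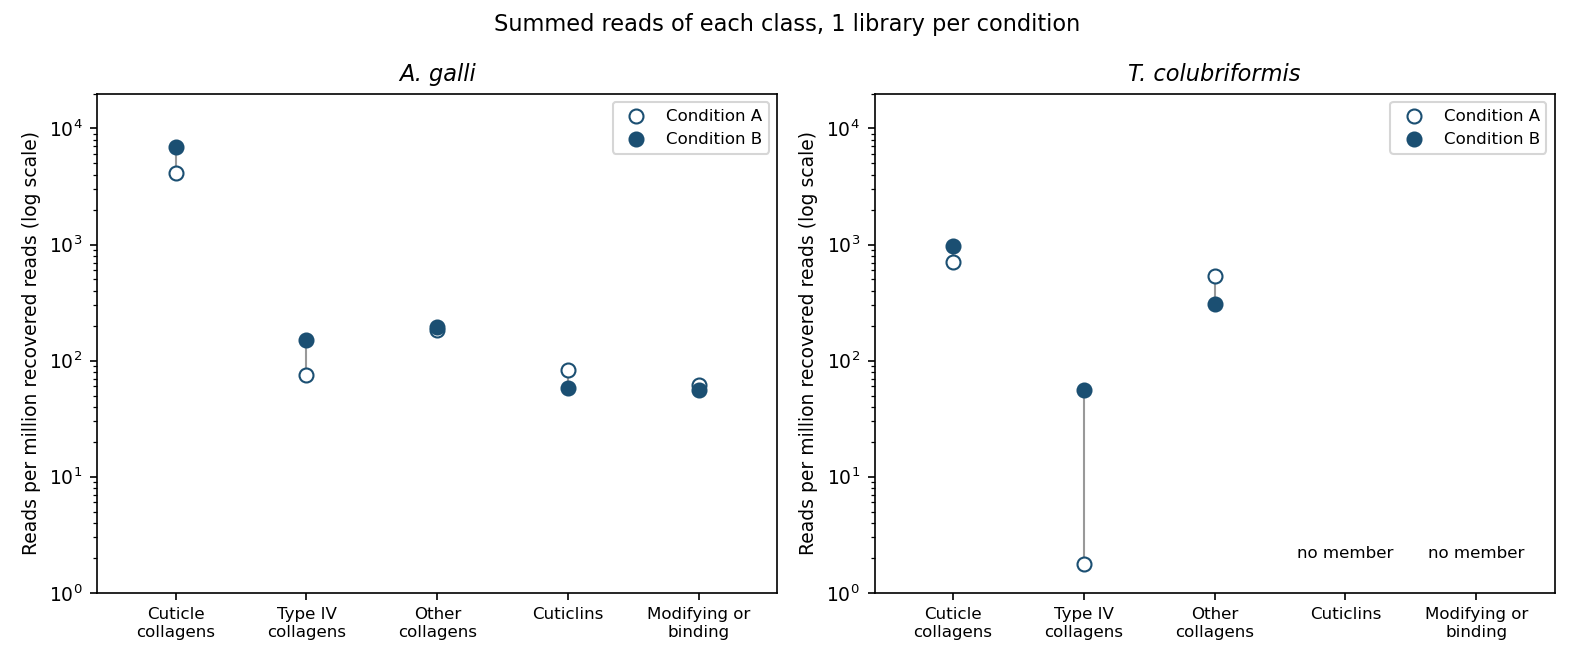
Summed level of each class in RPM, reads per 1000000 recovered reads, on a log axis, with condition A as an open circle and condition B as a filled one, 1 library each. In *A. galli* cuticle collagens stood at 4096 and 6945 and cuticlins at 83.4 and 58.3; in *T. colubriformis* type IV collagens stood at 1.75 and 55.3.

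Changes of size were counted as at least 4-fold, where the higher condition held 20 normalized counts or more. In *A. galli* 105 members reached that count, and 4 of them (3.81%) were at least 4-fold higher in B, against 22.7% of all 114411 unigenes that reached it. A further 9 members (8.57%) were at least 4-fold lower, against 9.76% of all unigenes, and 92 stayed within 4-fold. By total reads 5 of 104 members (4.81%) were higher, beside a background of 29.0%, and 7 (6.73%) were lower, beside 5.74%. The members' count of higher unigenes was thus below the background on both scales, and the count of lower ones was near it. In *T. colubriformis* 76 members reached the count: 35 (46.1%) were at least 4-fold higher, against 39.7% of all 37391 unigenes, and 28 (36.8%) were lower, against 41.6%. By total reads 45 of 72 (62.5%) were higher and 18 (25%) lower, beside 55.7% and 28.1%. Members of that worm thus spread about as widely as the rest of the table.

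**Figure D2:**
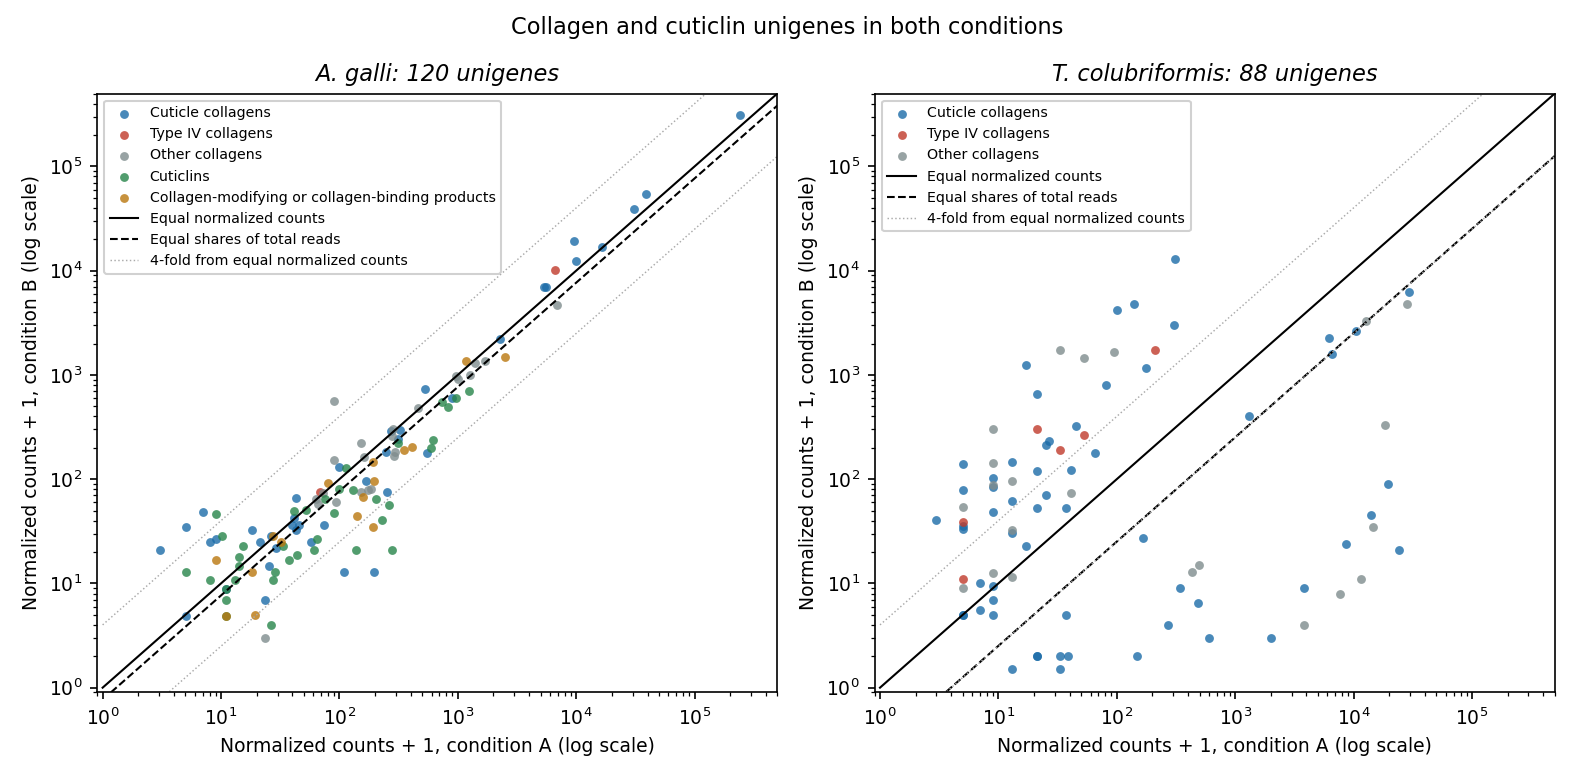
Normalized counts plus 1 of every member in condition A (horizontal) and condition B (vertical) on log axes, coloured by class. The solid line marks equal normalized counts, the dashed line equal shares of total reads, and dotted lines a 4-fold difference. The 120 *A. galli* members lie along the lines, with cuticlins mostly below them, while the 88 *T. colubriformis* members fall into a group above the lines, a group far below them and a few near the dashed line.

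Most cuticle collagen reads of *A. galli* fell on unigenes named for DPY-5, a collagen whose loss in *C. elegans* gives a short, stout body. The name rests on best matches: the 9 unigenes matched 7 proteins so named, and the one with the most reads, 116967, aligned to 29.97% of its match. That unigene was at 240879 normalized counts in A and 311874 in B, which is 66.0% of the normalized counts of the class and not a share of molecules. The log2 ratio was 0.37, with a 95% counting interval of 0.36 to 0.38, and 0.76 by total reads. It was higher in B on either scale. All 9 unigenes named for DPY-5 summed to 291528 in A and 382926 in B, and 6 of the 9 were higher in B (7 by total reads).

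The next most abundant cuticle collagens were higher in B as well. Cuticle collagen 155 (unigene 222494) was at 38876 in A and 54582 in B, a log2 ratio of 0.49 (0.46 to 0.52). A second DPY-5 unigene, 45419, was at 30779 and 38913, a log2 ratio of 0.34. The largest difference among the 8 most abundant was that of DPY-5 unigene 104256, at 9557 in A and 19392 in B (log2 ratio 1.02, interval 0.97 to 1.07). Its companion 23426, with the same best match, was at 9879 and 12394 (log2 ratio 0.33). A pair of unigenes named Nematode cuticle collagen domain protein that share a best match were close to each other: 72726 was at 5538 and 6961, and 165578 at 5318 and 6933. Cuticle collagen 13 (unigene 40609) was at 16557 in A and 16766 in B, and its counting interval of -0.026 to 0.062 included 0, though by total reads its log2 ratio was 0.40.

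Cuticle collagens with fewer reads lay on both sides of 0. Over the 39 with a mean of 10 or more, the log2 ratios had a median of 0.027, with quartiles at -0.51 and 0.44, and 0.40 by total reads. Of all 41, 21 were above 0 and 20 below, and by total reads 27 were above and 14 below. By mean level, over all 41 with no minimum, the median was 0.34 for the 9 members above 1000 and -0.45 for the 11 from 100 to 1000. It was -0.11 for the 13 from 20 to 100 and 0.74 for the 8 below 20. By total reads these were 0.72, -0.066, 0.26 and 1.09, so the medians did not follow abundance in order. All 4 unigenes of cuticle collagen 40 were lower in B, from -0.049 to -3.93, but by total reads the most abundant of them, 99273, was at 0.33 and the sum of the 4 at 0.023. The lowest of them, 64757, went from 195 normalized counts in A to 11.8 in B (interval -5.52 to -2.87). Cuticle collagen 2 (unigene 60554) went from 107 to 11.8, a log2 ratio of -3.08 (-4.69 to -1.97). LON-3, a collagen whose loss in *C. elegans* gives a longer body, had 3 unigenes, at 251 and 74.9, at 41.6 and 31.6, and at 2.03 and 19.7 normalized counts in A and B. Those unigenes did not share a direction.

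Other, less abundant cuticle collagen products of *A. galli* were on either side of 0. Cuticle collagen 14 summed to 594 in A and 579.9 in B over 2 unigenes, a log2 ratio of -0.035 that was 0.35 by total reads, and the products named Putative cuticle collagen to 300.2 and 229 over 3. Both unigenes of cuticle collagen 99 were higher in B and summed to 140 and 195. Cuticle collagen 34 summed to 85.2 and 76.9, a log2 ratio of -0.15 that was 0.24 by total reads. A single *Trichuris*-matched unigene was at 22.3 and 5.9, a log2 ratio of -1.76 on few reads.

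The unigenes named for type IV collagen, the network collagen of basement membranes, summed higher in B in *A. galli*, almost wholly through 1 unigene. The product named Collagen triple helix repeat and Type 4 procollagen domain containing protein (unigene 198433) was at 6632 in A and 10161 in B, a log2 ratio of 0.62 (0.55 to 0.68) and 1.00 by total reads. That unigene aligned to 18.1% of its match at 38.4% identity, and its class rests on that name. The unigene named Collagen alpha-2(IV) chain, 195105, aligned to 83.0% of its match at 64.7% identity. It was at 67.9 and 74.9, and its interval of -0.57 to 0.86 included 0. The sum of both was 6700 in A and 10236 in B. Of the 145 unigenes named for partners of collagen in the basement membrane, such as laminin, nidogen and integrin, 131 were counted, 13 at least 4-fold higher and 10 lower, beside 22.7% and 9.76% of all unigenes, and their median log2 ratio was -0.042 (0.32 by total reads). The most abundant of them, Basement membrane proteoglycan, the perlecan-type core protein of that membrane, was at 7733 and 8076 (unigene 96532).

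The other collagens of *A. galli* were mostly named for chains known from vertebrates, and most differed little. Collagen alpha-1(XX) (unigene 18125) was at 6923 normalized counts in A and 4702 in B, a log2 ratio of -0.56 (-0.63 to -0.48) and -0.18 by total reads. Collagen XVIII, a basement membrane collagen whose end fragment is endostatin, had 3 unigenes summing to 4057 in A and 3634 in B, a log2 ratio of -0.16 that was 0.22 by total reads. Its unigene 60158 was at 1712 and 1370, a log2 ratio of -0.32 that turned to 0.062 by total reads, and 205708 was at 1383 and 1298, -0.092 against 0.29. The last of them, 213234, was at 962 and 966. The 5 unigenes of the alpha-6(VI) chain summed to 1705 and 1629 (-0.065, and 0.32 by total reads), and unigene 65067 of them was at 1008 and 914 (-0.14, and 0.24 by total reads). Collagen alpha-2 chain (57018) was at 1255 and 988, a log2 ratio of -0.35 that was 0.038 by total reads. The exception in size was the unigene named only Procollagen, 116511, at 89.2 in A and 557 in B, a log2 ratio of 2.63 (2.18 to 3.14). It aligned to 60 residues, 3.34% of its match, and its class rests on that name. It carries the annotation "extracellular matrix structural constituent", as does the type IV unigene 198433. The median of the 23 was -0.14, or 0.24 by total reads. Of them 1 was at least 4-fold higher and 1 lower, beside 22.7% and 9.76% of all unigenes. The lower one was the unigene named alpha-4(VI) chain, at 22.3 in A and 1.97 in B, where it rests on 2 reads. Despite its name it carries the annotation "structural constituent of cuticle". By total reads 1 of the 22 counted was higher and 0 lower, beside 29.0% and 5.74%.

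Among the remaining chains, those of collagen XII, a fibril-associated collagen in vertebrates, were lower in B as a sum. The 5 unigenes summed to 633 normalized counts in A and 350 in B, a log2 ratio of -0.85 that was -0.47 by total reads. Of the 5, 4 were below 0 (3 by total reads). Unigenes 1861, 34947 and 86582 summed to 506 and 231. Unigenes 111693 and 187711 summed to 127 and 119, a log2 ratio of -0.087 that was 0.30 by total reads. The alpha-5(VI) chain had a pair of unigenes summing to 378 and 225, and a fragment of it that was at 281 and 300. The unigene of alpha-1(XXVII) was nearly level at 71 and 73. No direction was thus shared by the vertebrate-type chains.

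Most cuticlins of *A. galli* were lower in B. Of 38 unigenes, nearly all named Cuticlin-1, 29 were below 0 and 9 above, and by total reads 24 were below and 14 above. The median over the 33 with a mean of at least 10 was -0.74, with quartiles at -1.38 and -0.23, and -0.36 by total reads, against the -0.25 and 0.13 of annotated unigenes. The class sum was 7416 normalized counts in A and 3973 in B. Of the 30 counted, 5 (16.7%) were at least 4-fold lower and 1 (3.33%) was higher, beside 9.76% and 22.7% of all unigenes. By total reads 4 were lower and 1 higher, beside 5.74% and 29.0%.

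The 6 most abundant cuticlins were all lower in B on both scales. Unigene 22998 was at 1240 in A and 696 in B, a log2 ratio of -0.83 (-1.03 to -0.64), and 31036 was at 974 and 593 (-0.71, interval -0.93 to -0.50). Unigene 216682 was at 819 and 490, and 150826 at 729 and 550; the latter was -0.41, but only -0.023 by total reads. Unigenes 24312 and 89798, which share the best match Tcan_13941, were at 620 and 237 and at 595 and 197, log2 ratios of -1.38 and -1.59. The largest difference was that of 15882, at 275 in A and 19.7 in B, a log2 ratio of -3.73 (-4.89 to -2.88), and -3.36 by total reads. Its counterpart with the same best match, 165541, was at 36.5 and 15.8. When unigenes were summed over the 15 best-match proteins, 11 sums were lower in B and 4 higher, and 10 and 5 by total reads. The single unigene named Epicuticlin was at 10.1 and 3.9 normalized counts, near the lowest counts used here.

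**Figure D3:**
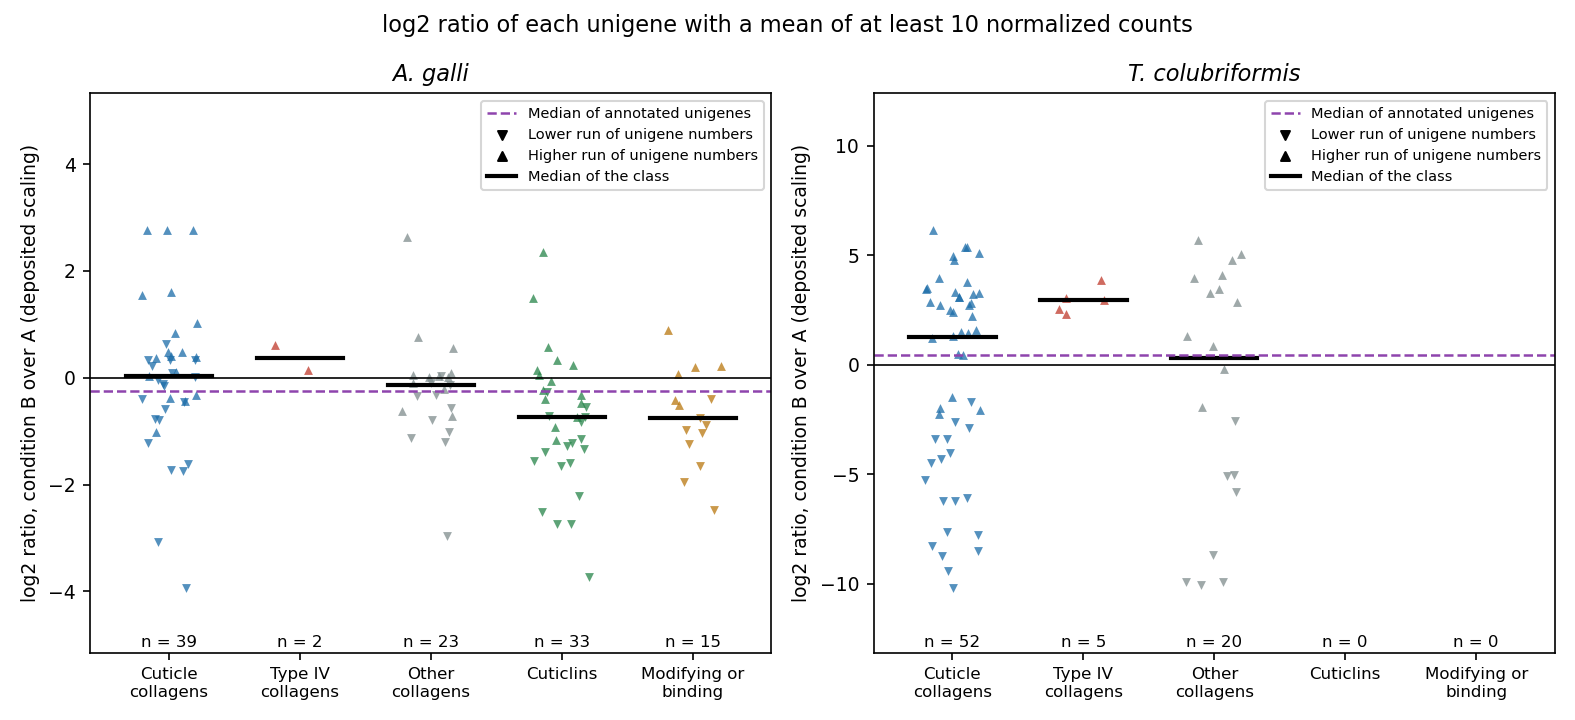
log2 ratio of condition B over A of each member whose mean was 10 normalized counts or more, by class and worm, on the deposited scaling. Bars mark class medians, the dashed line the median of annotated unigenes, and the pointing of the triangles the run of unigene numbers. In *A. galli* the cuticlin median of -0.74 lies below that of cuticle collagens at 0.027, and in *T. colubriformis* the cuticle collagens run from -10.17 to 6.18.

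Markers of other tissues also differed between the conditions. The 159 unigenes named for the major sperm protein, the cytoskeletal protein that drives nematode sperm movement, took 57117 RPM in A and 22345 in B of *A. galli*. Their median log2 ratio was -1.77 (-1.38 by total reads). Of 158 counted, 52 were at least 4-fold lower and 3 higher, beside 9.76% and 22.7% of all unigenes. By total reads these were 21 and 3, beside 5.74% and 29.0%. The 14 intestine-type products went from 19914 to 11292 RPM, with a median of -0.64 (-0.26 by total reads). Most of that sum was 1 lipid-binding protein (161204), at 1694430 normalized counts in A and 715033 in B. The 69 muscle products had a median of -0.49, and the 46 yolk and eggshell products one of -0.21, which were -0.11 and 0.16 by total reads. The 36 unigenes named for chloroplast proteins took 37.1 and 60.8 RPM, and none was named for the host proteins searched, hemoglobin and immunoglobulin. In *T. colubriformis* the 25 sperm unigenes took 241 and 273 RPM, with a median of 1.73, while the one with the most reads (19390) was at 24386 in A and 19 in B. Its 4 muscle unigenes took 1.36 and 19.7 RPM and its 3 chloroplast unigenes 0.307 and 11.03, and the yolk, intestine and host lists had no match. The part of tissue make-up in the collagen and cuticlin values of either worm was not tested, and in whole worms fewer cells of a type and less RNA per cell cannot be told apart.

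Enzymes that make collagen ready for export were near the rest or below it in *A. galli*. The lysyl hydroxylase named procollagen-lysine 5-dioxygenase, which in *C. elegans* is LET-268 and is needed for type IV collagen to leave the cell, had unigene 37002 at 2501 in A and 1486 in B, a log2 ratio of -0.75 (-0.88 to -0.62). Unigene 195688, which matches the same protein over the same stretch, was at 1177 and 1345, a log2 ratio of 0.19 (0.030 to 0.35). Another unigene of that name, 24901, was at 191 and 33.5 (-2.47, interval -3.35 to -1.75). The 6 unigenes of this exact name thus did not share a direction, with 5 lower and 1 higher in B.

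The product named Collagen type IV alpha-3-binding protein, known in vertebrates as the ceramide transfer protein, moves a lipid between membranes and is not a structural component. Its 4 most abundant unigenes were all lower: 58937 was at 406 and 204, 74933 at 351 and 189, 194583 at 192 and 144, and 7249 at 195 and 94.7. The interval of 194583, -0.87 to 0.043, included 0, and its log2 ratio was -0.029 by total reads. The less abundant 111907, at 79.1 and 91.7, and 123368, at 26.4 and 27.6, were higher in B, with intervals that included 0. Across 149 unigenes of enzymes and helpers of collagen making, 10 of which are also members, the median was -0.50, or -0.13 by total reads. Of the 136 counted, 7 were at least 4-fold higher and 8 lower, beside 22.7% and 9.76% of all unigenes. The most abundant, a protein disulfide-isomerase (80604) of the type that is also a subunit of prolyl 4-hydroxylase, was at 105632 and 97225, a log2 ratio of -0.12 that was 0.26 by total reads. Among 78 surface and moulting genes, 2 of 71 were higher and 3 lower, beside the same 22.7% and 9.76%. The most abundant, Patched domain-containing protein 3 (37776), was at 10319 and 11074.

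The ratios of the cuticle collagens of *T. colubriformis* lay far apart, as did those of the table as a whole. Of 60 unigenes, 52 were counted, 22 (42.3%) at least 4-fold higher in B and 20 (38.5%) lower, near the 39.7% and 41.6% of all unigenes, and 10 were within 4-fold. By total reads 29 of 46 were higher and 11 lower, beside 55.7% and 28.1% of all unigenes. The median was 1.28 with quartiles at -4.10 and 3.13, so it describes few of the members, and it was 3.16 by total reads. All 60 carry the annotation "structural constituent of cuticle", as do 36 of the 41 of *A. galli*. Very few reads stood behind one side of many ratios: 13 of the 88 members had 3 reads or fewer in A and 7 had 3 or fewer in B.

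A first group was abundant in A and near absent in B. Unigene 799, named Nematode cuticle collagen domain protein, was at 24212 normalized counts in A and 20 in B, a log2 ratio of -10.17 (-10.95 to -9.61) and -8.22 by total reads. Unigene 22201 was at 19640 and 89.5, and 3241 at 13928 and 44. Unigene 701 was at 8592 and 23. All of these were lower in B on either scale. The name of unigene 799 was the only product name found in both worms, and the most abundant *A. galli* unigene of that name, 72726 above, had a log2 ratio of 0.33 between its own conditions.

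A second group was abundant in B. Unigene 78917 was at 308 in A and 12872 in B, a log2 ratio of 5.38 (5.06 to 5.73) and 7.37 by total reads. Unigene 49615, named Nematode cuticle collagen and Collagen triple helix repeat domain containing protein, was at 304 and 3041 (3.32, interval 2.99 to 3.67). These members were higher in B on either scale.

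The last group was lower in B by the deposited scaling and nearly level by total reads. Unigene 39612 was the most abundant cuticle collagen of the worm, at 29112 normalized counts in A and 6177 in B, and its log2 ratio of -2.24 (-2.29 to -2.19) was -0.25 by total reads. Unigene 35004 was at 10436 and 2654, with -1.98 against 0.014 by total reads, and 85620 was at 6196 and 2234, with -1.47 against 0.52. Of the 21 members whose mean was 1000 or more, 6 (28.6%) lay within 2-fold by total reads, against 14.6% of the 11218 unigenes of that abundance in the table. In *A. galli* it was 15 of 16 members, or 93.8%, against 74.2% of 8208.

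Type IV collagen was the one class of *T. colubriformis* with a single direction. All 6 unigenes, named for the C-terminal tandem repeated domain in type 4 procollagen, were higher in B. All 5 that were counted were at least 4-fold higher, beside 39.7% of all unigenes, and the median was 2.94, or 4.65 by total reads. Unigene 55542 was at 208 in A and 1733 in B (3.05, interval 2.66 to 3.49), and 70440 at 20 and 303 (3.85, interval 2.68 to 5.55). Unigene 49774 was at 52 and 265, and 67155 at 32 and 190. All 6 carry the annotation "extracellular matrix structural constituent", as does 1 of the 2 of *A. galli*.

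The remaining type IV unigenes were near the limit of counting. Unigene 71280 was at 4 and 37.5, and its interval of 0.66 to 8.57 was wide; 84555 was at 4 and 10, and its interval of -1.49 to 6.76 included 0. The 6 unigenes matched only 3 proteins, so they may be pieces of fewer genes. All 6 also lay in the run of unigene numbers in which 66.1% of all counted unigenes were at least 4-fold higher in B and the median was 2.83, and a value of 2.94 was near that background. The 33 basement membrane partners of that worm had a median of -1.14, which was 0.85 by total reads. Of 31 counted, 10 were at least 4-fold higher and 15 lower, beside 39.7% and 41.6% of all unigenes. By total reads these were 14 and 12 of 29, beside 55.7% and 28.1%. The most abundant, Fibulin-1 (7366), a secreted matrix protein, was at 61110 and 92.5.

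The 22 products named for the collagen triple helix repeat may belong to either kind. Of them 9 carried the cuticle annotation and 0 the extracellular matrix annotation that all 6 type IV unigenes carry. Their median was 0.33 (2.22 by total reads), with 8 of 19 higher and 8 lower (42.1% each), near the 39.7% and 41.6% of all unigenes. Unigene 22268 was at 28362 in A and 4750 in B (-2.58, interval -2.63 to -2.52, and -0.59 by total reads). Unigene 34334 was at 18472 and 333, and 28359 at 14500 and 34. Those were lower in B on both scales.

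The triple helix products with the fewest counts in B among the 6 most abundant were 2296, at 11640 and 10 (-10.05), and 5908, at 7612 and 7. Unigene 93273, at 12770 and 3315, was lower by -1.95 on the deposited scaling and level by total reads, at 0.044. Higher in B were 60881, at 32 and 1730 (5.71, interval 4.77 to 6.97), and 85863, at 8 and 299. The collagen-making helpers of the worm, 44 unigenes, had 15 of 35 higher and 17 lower (21 and 14 of 39 by total reads). They were led by a tetraspanin, of the membrane protein family that includes a partner of the enzyme cross-linking the *C. elegans* cuticle (19817, at 113944 and 286.5). The 28 surface and moulting genes had 7 of 24 higher and 13 lower (12 and 9 of 21), led by a patched domain protein (22337, at 123864 and 261). Beside both lists stand 39.7% and 41.6% of all unigenes (55.7% and 28.1% by total reads).

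In both worms the direction of a member went with its unigene number. The numbers split into a lower and a higher run at 100753 in *A. galli* and at 34722 in *T. colubriformis*, the point where a step in log2 ratio fits the whole table best. In *A. galli* the 63 members of the lower run had a median log2 ratio of -0.89. Of the 57 counted there, 9 were at least 4-fold lower and 0 higher, against 19.7% and 3.64% of all counted unigenes of that run. The 57 members of the higher run had a median of 0.12. Of the 48 counted there, 4 were higher and 0 lower, against 39.0% and 1.31% of all counted unigenes. In *T. colubriformis* all 29 members of the lower run were below 0, with a median of -6.07. Of the 27 counted there, 26 were at least 4-fold lower, against 95.2% of all counted unigenes of that run. The 59 members of the higher run had a median of 2.91. Of the 49 counted there, 35 were at least 4-fold higher and 2 lower, against 66.1% and 5.67% of all counted unigenes. The whole tables stepped in the same direction, with medians of -0.81 and 1.29 in *A. galli* and -5.60 and 2.83 in *T. colubriformis*. In *A. galli* the step of the members was smaller than that of all unigenes. Annotated unigenes of that worm had medians of -0.77 and 0.53. Spearman's rho between number and log2 ratio was 0.50 over 120 members and 0.48 over 150798 unigenes of *A. galli*, and 0.65 over 88 and 0.69 over 43810 in *T. colubriformis*, given as descriptions since unigenes share their libraries.

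**Figure D4:**
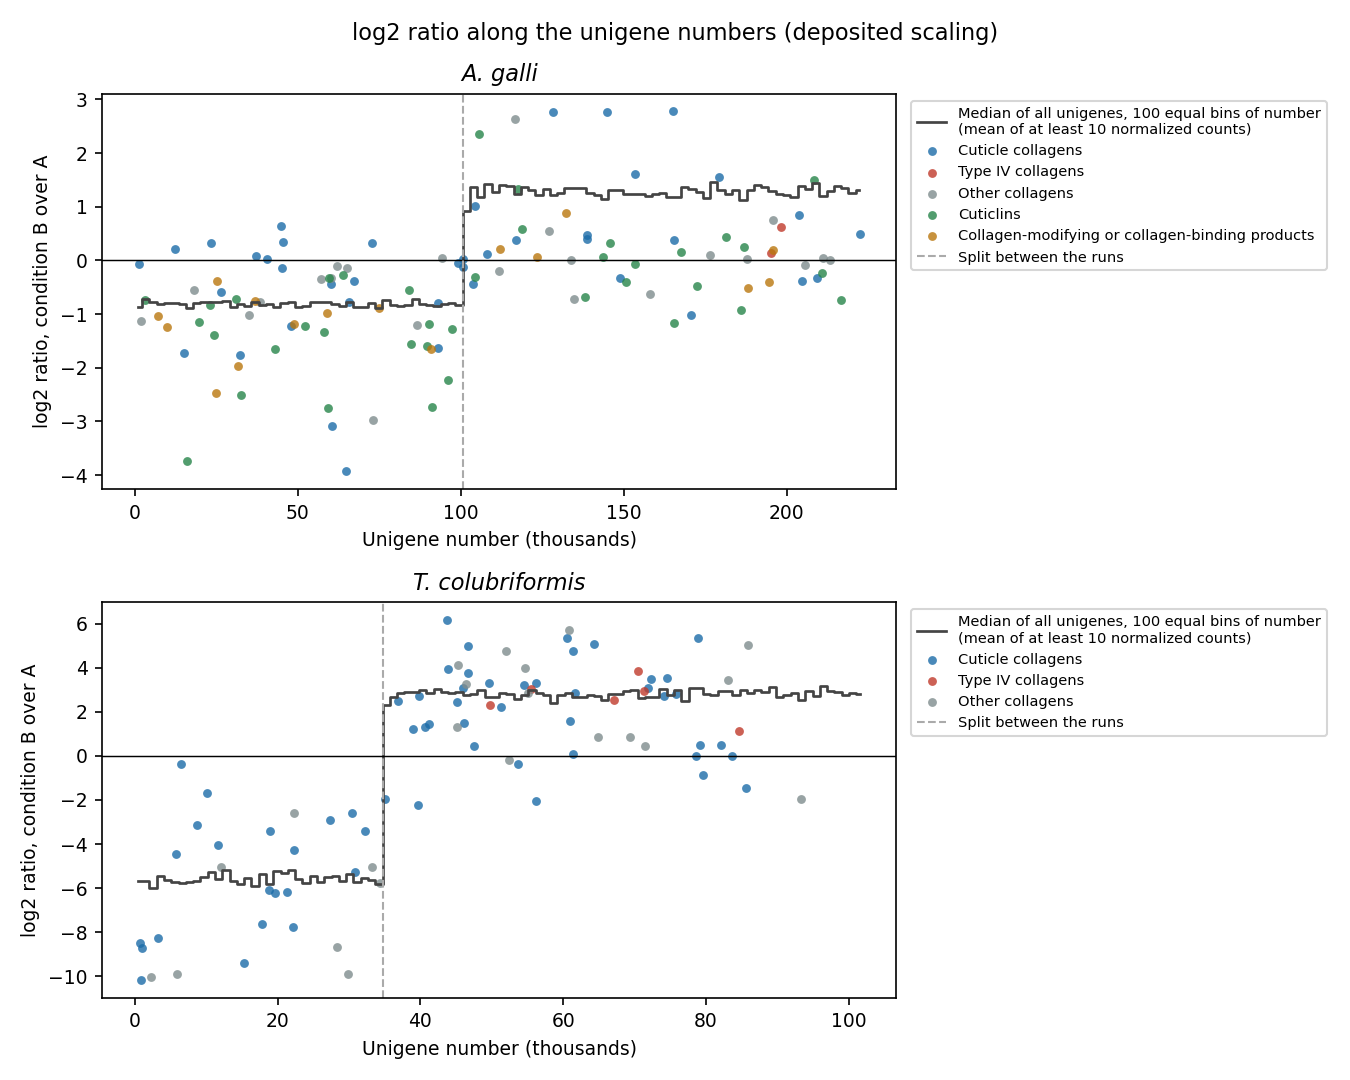
log2 ratio of condition B over A against unigene number (axis in units of 1000), with each member as a point coloured by class, the median of all unigenes whose mean was 10 or more in 100 bins as a stepped line, and the split between the runs as a dashed line. Member medians step in the direction of the table, from -0.89 to 0.12 in *A. galli* and from -6.07 to 2.91 in *T. colubriformis*. In *A. galli* the step of all unigenes is larger, from -0.81 to 1.29.

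Cuticlins of *A. galli* had a lower median than cuticle collagens in each run. In the lower run the median was -0.39 for cuticle collagens, -0.56 for other collagens, -1.36 for cuticlins and -1.03 for modifying or binding products, beside -0.77 for annotated unigenes. In the higher run it was 0.44, 0.017, -0.067 and 0.13, and 0.38 for type IV, beside 0.53. By total reads the cuticlin medians were -0.99 and 0.31, so the sign in the higher run turned with the scaling. All 20 cuticlins of the lower run were below 0, and of the 18 of the higher run 9 were below and 9 above; by total reads 18 of 20 and 6 of 18 were below. Both type IV unigenes were in the higher run.

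Unigenes of both runs often matched the same protein. In *A. galli* 27 of 65 best-match proteins had members in both runs, and in all 27 the summed ratio was higher in the higher run, by a median of 1.04 on the log2 scale. For 12 of the 27, at least 1 unigene of each run aligned alike, to the same stretch of the protein with the same identity. For 11 the signs were opposite (14 by total reads). In *T. colubriformis* it was 9 of 64 proteins, with the higher run above the lower in all 9 by 5.49 to 13.68, and opposite signs in 8 (9 by total reads). Unigenes of both runs aligned alike in 0 of the 9. For the protein OESDEN_10319 the lower-run unigene was at 344 in A and 8 in B, and the higher-run one at 16 and 1231. For OESDEN_11566 they were 22268 and 85863, given above, which went in opposite directions. Whether such unigenes are alleles, copies, pieces of 1 transcript or separate assemblies of it cannot be told apart here, so counts of unigenes are not counts of genes. How the numbers were assigned was not stated in the labels.

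**Figure D5:**
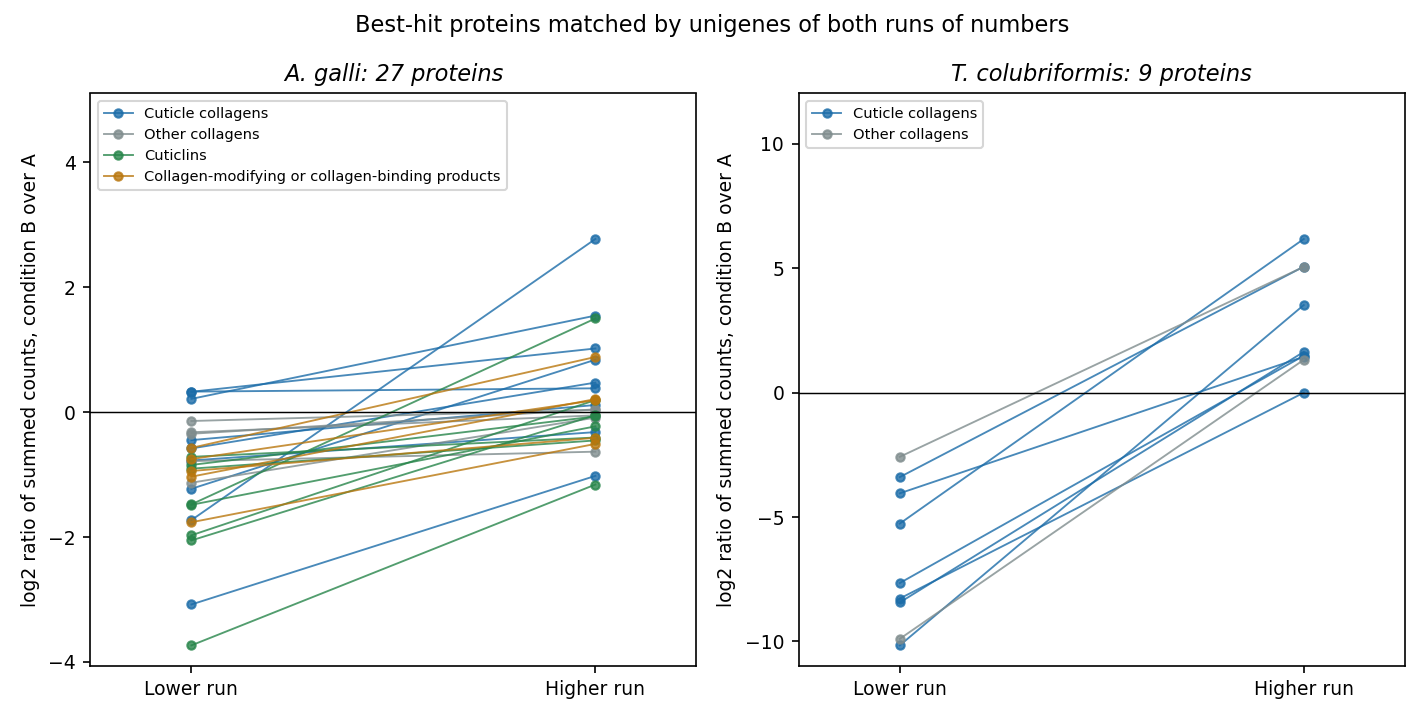
log2 ratio of condition B over A, summed over the unigenes of each best-match protein in the lower and in the higher run of unigene numbers, with a line joining the values of 1 protein. All 27 lines of *A. galli* and all 9 of *T. colubriformis* rise from the lower to the higher run.

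The authors' deposited table marks 5 *A. galli* members as up, 10 as down and 105 as neutral, and 35, 29 and 24 of the *T. colubriformis* members. In the authors' deposited table every member of both worms has an adjusted p-value of 1. The lowest unadjusted p-value in the authors' deposited table was 0.0331, for the cuticlin 15882 of *A. galli*, and 2 members of that worm were under 0.05; in *T. colubriformis* the lowest was 0.5.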

How the data were processed

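RNA sequencing covered whole worms, with 1 library per worm and condition, 4 libraries in all. The authors' deposited tables list, per the file headers, the mean normalized count of each unigene in conditions A and B, recorded here as a score since the columns name no sample. The submitters' processing notes name DESeq. The authors' deposited p-values and adjusted p-values were copied and not recomputed. A stray line that names no unigene was dropped from the *A. galli* table.

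Because low values were whole multiples of the value of 1 read, reads were recovered by dividing by it; over values of up to 200 reads, 100% came out whole within 0.1. The recovered totals are the depth. No count model was fitted, since the values could not be tied to samples. log2 ratios of B over A used a pseudocount of 1, and 95% intervals are exact (Clopper-Pearson) binomial intervals on the recovered reads divided by 2, as most counts were even; they cover counting error only. With 1 library per condition no test across libraries was made, and members of a class are not replicates.

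Classes were assigned from product names. Named unigenes were, per worm, the 8 most abundant cuticle collagens, the 6 most abundant of each other class, the 4 largest differences in each direction among those with 100 or more normalized counts (ranked by the interval bound nearest 0, 1 per product name), product names found in both worms, and the most abundant unigene of each pathway list. LON-3, cuticle collagen 40 beyond its named member, Epicuticlin, the remaining products and the shared best matches were chosen after their values were seen. Members and lists were chosen with earlier results of these data known. Marker and pathway lists were matched by product name. The split of unigene numbers was the least-squares step over the whole table.

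Calculations used Python 3.11.15, NumPy 2.4.6, pandas 2.3.3, SciPy 1.17.1 and matplotlib 3.10.9, and were tested on simulated data. Alternatives were other scalings, pseudocounts, minimums and fold thresholds, and summing by product name or best match. Nucleotide and protein sequences of the unigenes were not used here.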

Additional observations from a re-analysis of the deposited data

How the results depend on the processing

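The *A. galli* members at least 4-fold higher in B numbered 4; they were 1 with a minimum of 100 normalized counts, 1 when the whole counting interval had to pass 4-fold, 1 with 1 unigene per product name, and 8 at a 2-fold threshold. The 9 lower ones became 2, 2 and 29 under the last 3 of these, and 3 when unigenes were summed per best match. In *T. colubriformis* the 35 higher members became 20 under the interval rule, 3 with 1 unigene per product name and 23 when summed per best match, and the 28 lower ones 4 per product name and 18 by total reads. Scaling by total reads moved the class medians of *A. galli* to 0.40 for cuticle collagens, 0.76 for type IV collagens and -0.36 for cuticlins, and those of *T. colubriformis* to 3.16 for cuticle and 4.65 for type IV collagens; none of these changed sign. The *A. galli* cuticle collagen median turned to -0.049 when summed per best match. The *T. colubriformis* one turned to -0.013 with a minimum mean of 50 and to -2.24 with 1 unigene per product name. Splitting by unigene number was chosen after seeing the data: the lower and higher runs gave -0.39 and 0.44 for *A. galli* cuticle collagens, -1.36 and -0.067 for its cuticlins, and -6.07 and 2.83 for *T. colubriformis* cuticle collagens. So the sign of the cuticle collagen median in either worm depended on which unigenes entered. The cuticlin median of the higher run was 0.31 by total reads, so its sign also turned. The causes were not tested. A pseudocount of 5 and the trimmed mean of M-values left every count within 1.5 times its value and changed the sign of no class median; with 2 to 6 type IV unigenes per worm that says little of that class. *T. colubriformis* had no cuticlins, and its type IV unigenes had none in the lower run, as had those of *A. galli*, so these gave no value. No paired analysis was possible because there was 1 library per condition, and for the same reason no library could be left out. Ratios that rest on a few reads, as for many *T. colubriformis* members, are limited by depth.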
